A study of Rattus norvegicus with 12 samples.

Results

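Hepcidin is the liver hormone that sets how much iron enters the blood. The genes described here are hepcidin itself (Hamp), the genes that sense iron and drive Hamp (Bmp6, Hjv, Tfr2), and the genes that carry, import, export or store iron (Tf, Tfrc, Slc11a2, Slc40a1, Fth1, Ftl1). The members are 10 genes chosen by name, and they are measured by every probe set that the platform annotation gives to one of these symbols. That rule found 18 probe sets among 31042 probe sets other than controls, and all 10 members have at least 1. The annotation holds 14217 genes with a probe set of a single gene, and 7 of the 10 members are among them. A probe set is a group of short DNA probes for a transcript. Of the 18 probe sets, 14 are annotated to a single gene, and 4 (both for Tf, 1 for Fth1, 1 for Ftl1) are annotated to several genes and cannot be split between them.

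The study used rat liver RNA on 12 whole-genome expression arrays of 1 design. Long Evans Cinnamon (LEC/Crj) rats have an inherited defect of Atp7b, the copper exporter of the liver, and come down with copper overload, hepatitis and later spontaneous liver tumors. Long Evans Agouti (LEA) rats are the control strain. There were 4 arrays of LEC liver tumor and 4 arrays of LEC nontumor liver, all at 67 weeks. Each of these 8 arrays held a mixture of RNA from 2 tumor and nontumor pairs drawn from 8 paired specimens, and it is not stated whether arrays share animals. Single arrays of pooled RNA came from LEA liver at 67 weeks and from LEC liver at 4, 26 and 39 weeks, with no number of animals stated. All rats are labelled male, were kept free of specific pathogens, and no treatment is named. Values are RMA levels, a log2 scale on which a difference of 1 is a 2-fold difference. A difference is given as log2 ± SE from limma and was called at a Benjamini-Hochberg adjusted p under 0.05 over all 31042 probe sets. The p-values measure the spread between pooled arrays, and a group of 1 array is assumed to vary like the replicated groups. The main fit treats tumor and nontumor arrays as separate groups and does not use the pairing of specimens. The labels do not say which arrays match.

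Iron bound to transferrin and the growth factor BMP6, made mainly by liver endothelial cells, report the body's iron to the hepatocyte. Hepatocytes hold the coreceptor hemojuvelin (Hjv) and transferrin receptor 2 (Tfr2) on their surface, and SMAD proteins carry the signal to the Hamp promoter. Inflammation acts on the same promoter through IL-6 and STAT3. Secreted hepcidin binds ferroportin (Slc40a1), the iron exporter, and causes its breakdown, so that iron stays inside cells in ferritin.

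The 250 bases upstream of the annotated start of Hamp, Hjv and Tfr2 are shown because these genes carry the largest tumor difference among the members. The sequences are from RefSeq (build GRCr8), read 5′ to 3′ on the gene's strand, at chr1:95300272-95300521 (minus strand) for Hamp, chr2:186754551-186754800 (plus strand) for Hjv and chr12:24761369-24761618 (minus strand) for Tfr2. Capitals mark matches to 3 motifs that read the same on both strands: GGCGCC, the core of the BMP response element, TTCNNNGAA, the site of STAT proteins, and CACGTG, an E-box.
Hamp: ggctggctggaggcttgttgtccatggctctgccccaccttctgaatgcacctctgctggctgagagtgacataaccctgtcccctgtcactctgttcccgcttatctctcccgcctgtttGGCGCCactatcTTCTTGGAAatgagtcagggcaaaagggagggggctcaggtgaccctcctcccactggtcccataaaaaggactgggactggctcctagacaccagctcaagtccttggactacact
Hjv: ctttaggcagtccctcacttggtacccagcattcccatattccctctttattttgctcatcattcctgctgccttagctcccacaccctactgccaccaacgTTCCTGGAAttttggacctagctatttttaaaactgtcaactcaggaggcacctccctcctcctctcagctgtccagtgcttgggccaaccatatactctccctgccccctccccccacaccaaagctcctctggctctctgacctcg
Tfr2: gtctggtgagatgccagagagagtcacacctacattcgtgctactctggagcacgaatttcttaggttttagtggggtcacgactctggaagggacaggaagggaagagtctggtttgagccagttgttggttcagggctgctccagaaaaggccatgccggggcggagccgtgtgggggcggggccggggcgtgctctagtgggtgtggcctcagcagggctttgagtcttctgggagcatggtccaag
The Hamp sequence holds GGCGCC from base -129 to -124 and a STAT motif from -117 to -109, counted back from the start. The Hjv sequence holds a STAT motif from -148 to -140, and no searched motif is in the Tfr2 window. Among all 33469 promoters of this length in the table, 8.69% hold GGCGCC, 7.67% the STAT motif and 5.59% CACGTG. Of the 10 members, 8 are in the promoter table, with 9 entries because Slc11a2 has 2. Tfrc also holds GGCGCC, from -118 to -113, and the entries of Bmp6, Tf, Slc11a2 and Slc40a1 hold none of the motifs. Fth1 and Ftl1 are not in the table. A match is a description of the letters and no evidence of binding.

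Array medians lay between 7.39 and 7.51. The highest level among 27 bacterial control probe sets with no matching RNA, a guide to the level of an absent transcript, was 5.52 to 5.67 on tumor arrays, 5.88 to 6.01 on nontumor arrays and 6.11 to 6.22 on the 4 single arrays. The actin control's 3′ minus 5′ difference, a measure of RNA integrity, was 0.40 to 0.53 on nontumor and 0.14 to 0.35 on tumor arrays. It was 0.75 on the LEA and 0.36 to 0.55 on the younger LEC arrays. The same difference of the GAPDH control was 0.53 to 0.63 on nontumor and 0.53 to 0.70 on tumor arrays. For GAPDH it was 0.67 on the LEA and 0.47 to 0.64 on the younger LEC arrays. The part of either control in the results was not tested. The label male does not match the levels of Xist and Eif2s3y on 10 of the 12 arrays. Xist, transcribed from the inactive X chromosome of female cells, was at 11.36 to 13.12 on 10 arrays and at 5.27 and 5.67 on the 26-week and 39-week arrays. The Y-linked gene Eif2s3y was at 3.65 to 3.81 on the same 10 arrays and at 8.90 and 8.18 on those 2. The tumor, nontumor, LEA and 4-week arrays fall on the same side for these 2 genes. The probe set of Uty, also Y-linked, did not follow that split. Its level was 10.28 in nontumor (mean), 10.34 on the LEA, 9.97 on the 4-week and 9.84 on the 26-week array. Of 10 hepatocyte markers 9 were measured. Their median level was 13.86 to 14.07 on nontumor arrays and 12.76, 12.01, 13.71 and 8.91 on tumor arrays 1 to 4. Their summed level (log2) was 16.91 to 17.08 on nontumor and 14.14 to 16.71 on tumor arrays, 6 of the 9 fell in tumor, and none was within the range of absent controls on all tumor arrays. All 8 measured bile duct markers rose, with summed levels of 10.82 to 12.35 on nontumor and 15.04 to 15.37 on tumor arrays.

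Hamp fell in tumor on every array, over a wide range. Its level (probe set 1387396_at) was 13.16, 13.38, 12.84 and 13.07 on nontumor arrays 1 to 4 and 11.40, 9.39, 10.77 and 7.27 on tumor arrays 1 to 4. The nontumor arrays lay close together, and all 4 tumor arrays lay below them, with tumor 4 lowest and tumor 1 highest. The mean was 13.11 ± 0.22 (SD, n = 4) in nontumor and 9.71 ± 1.83 (SD, n = 4) in tumor. The difference was -3.40 ± 0.76, or 10.6-fold lower (limma adjusted p = 0.00428, 95% interval -5.13 to -1.68). Against the nontumor mean, single tumor arrays were 3.27-fold, 13.2-fold, 5.07-fold and 57.2-fold lower. Leaving out an array gave -3.97 without tumor 1 and -2.59 without tumor 4 as the extremes, and the call held. The nearest levels of the groups were 11.40 on tumor 1 and 12.84 on nontumor 3.

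Hjv, the BMP coreceptor that hepatocytes need for iron sensing, also fell. Its level (1391429_at) was 11.03, 11.51, 10.91 and 10.94 on nontumor arrays and 7.71, 6.40, 9.05 and 5.07 on tumor arrays. The groups did not overlap, and on tumor 4 the level was below that array's highest absent control of 5.59. The means were 11.10 ± 0.28 and 7.05 ± 1.71 (SD, n = 4 each), a difference of -4.05 ± 0.72 or 16.5-fold (limma adjusted p = 0.00126). Since tumor 4 lies in the range of absent controls, its difference of -6.04 has no exact size. Leaving out single arrays gave -4.71 (without tumor 3) to -3.38 (without tumor 4).

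Tfr2, the receptor through which hepatocytes sense iron-loaded transferrin, showed the same order of tumor arrays as Hjv. Its level (1380066_at) was 11.91, 11.88, 11.46 and 11.31 on nontumor arrays and 8.87, 7.54, 9.75 and 5.95 on tumor arrays. Again all tumor arrays were below all nontumor arrays, and tumor 4 was just above its highest absent control. The means were 11.64 ± 0.30 and 8.03 ± 1.66 (SD, n = 4 each). The difference was -3.61 ± 0.70, or 12.2-fold lower (limma adjusted p = 0.00201), with a range of -4.19 (without tumor 3) to -2.92 (without tumor 4) when single arrays were left out. Ranked from the lowest tumor difference over 14217 genes, Hjv was at place 21, Tfr2 at 69 and Hamp at 95. Of all probe sets, 0.677% were lower by at least 3 log2 units.

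**Figure D1:**
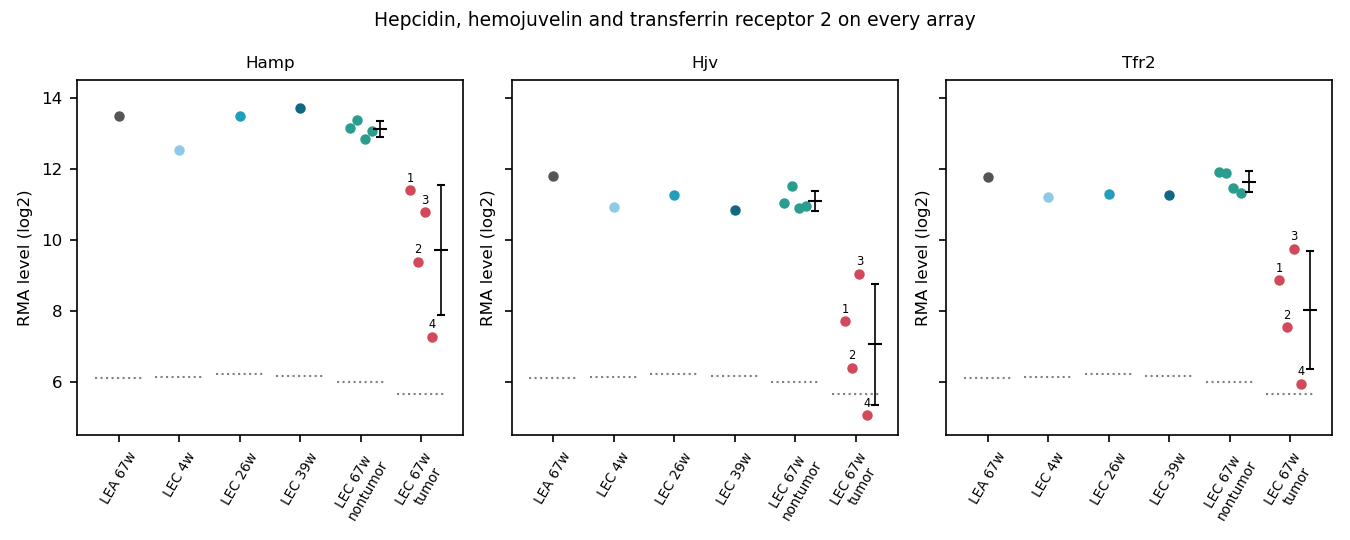
RMA level (log2, y axis) of Hamp, Hjv and Tfr2 on each of the 12 arrays by group (x axis). Points are arrays, tumor arrays carry their number, the bars are the mean ± SD of the 4 nontumor or 4 tumor arrays, and the dotted lines mark the highest absent control of each group; all tumor points lie below all other points, and tumor 4 is lowest in each panel.

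The 3 genes and the hepatocyte markers were set side by side on each tumor array, as differences from the nontumor mean. On tumor 4 the marker median differed by -5.06, Hamp by -5.84, Hjv by -6.04 and Tfr2 by -5.69. On tumor 2 the marker median differed by -1.96, Hamp by -3.72, Hjv by -4.70 and Tfr2 by -4.10. On tumor 1 the marker median differed by -1.20, Hamp by -1.71, Hjv by -3.39 and Tfr2 by -2.77. On tumor 3 the marker median differed by -0.25 while Hamp differed by -2.34, Hjv by -2.05 and Tfr2 by -1.89. On tumor 3, where the markers were nearest to nontumor, all 3 genes lay below every nontumor array. On nontumor arrays the marker median of 13.86 to 14.07 is close to the highest value of an array (14.53 to 14.57), so the sizes of marker and gene differences cannot be compared directly. When each array's hepatocyte marker median was subtracted before the fit, a setting chosen after the data were seen, the differences were -1.29 ± 1.05 for Hamp (adjusted p = 0.239), -1.93 for Hjv (adjusted p = 0.108) and -1.49 for Tfr2 (adjusted p = 0.177), and none was called. That setting adds the same amount to the difference of every probe set, so smaller falls turn into rises. The median of all probe sets moved to 2.08, with 6569 called higher and 2 lower. Of the 18 member probe sets 3 were then called higher (both rising Bmp6 probe sets and Slc11a2 1388059_a_at) and 0 lower by limma, with 5 higher and 0 lower at an unadjusted p under 0.05. The share of all probe sets at that unadjusted threshold was not counted. In bulk tissue, fewer hepatocytes and less RNA per hepatocyte cannot be told apart.

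**Figure D2:**
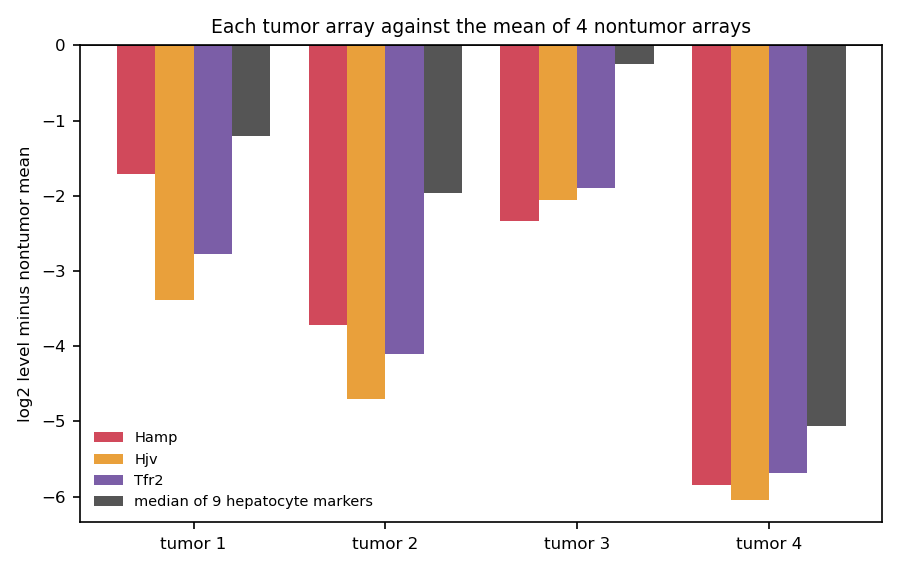
Difference in log2 level from the mean of the 4 nontumor arrays (y axis) on tumor arrays 1 to 4 (x axis). Bars show Hamp, Hjv, Tfr2 and the median of 9 hepatocyte markers; on tumor 3 the marker bar is short at -0.25 while Hamp is at -2.34, and on tumor 4 all bars lie below -5.

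Bmp6, the iron-responsive ligand, gave no single direction. Its 4 probe sets disagreed in tumor, 2 rising and 2 falling. Probe set 1388920_at read 7.14, 7.47, 7.62 and 7.43 on nontumor arrays and 8.73, 8.57, 8.19 and 8.39 on tumor arrays. The groups were apart, and the difference was 1.05 ± 0.14, or 2.08-fold higher (limma adjusted p = 2.51e-04). Probe set 1388201_at read 7.94, 7.96, 7.83 and 7.65 on nontumor arrays and 8.70, 8.78, 8.53 and 8.48 on tumor arrays, a difference of 0.78 ± 0.10 (limma adjusted p = 2.27e-04). Probe set 1378827_at, which has the highest mean of the 4, moved the other way. It read 9.29, 9.03, 9.59 and 9.69 on nontumor arrays and 8.76, 8.86, 8.79 and 8.55 on tumor arrays, a difference of -0.66 ± 0.15 (limma adjusted p = 0.00432). Probe set 1378427_at read 7.99 to 8.32 on nontumor and 7.71 to 7.89 on tumor arrays, a difference of -0.28 ± 0.09 (limma adjusted p = 0.0242) that was not called without tumor 3 (adjusted p = 0.0601) or tumor 4 (adjusted p = 0.0537). The mean over all 4 probe sets differed by 0.22 (limma adjusted p = 0.0453). With the hepatocyte marker median subtracted, the 2 falling probe sets turned to 1.46 and 1.84, neither called, against a median of 2.08 over all probe sets. Which transcripts each probe set reads was not tested here. Of 7 measured markers of sinusoidal endothelium, a main source of BMP6, 2 rose and 4 fell, with summed levels of 12.94 to 13.43 on nontumor and 12.52 to 12.81 on tumor arrays, and their part in the Bmp6 values was not tested.

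**Figure D3:**
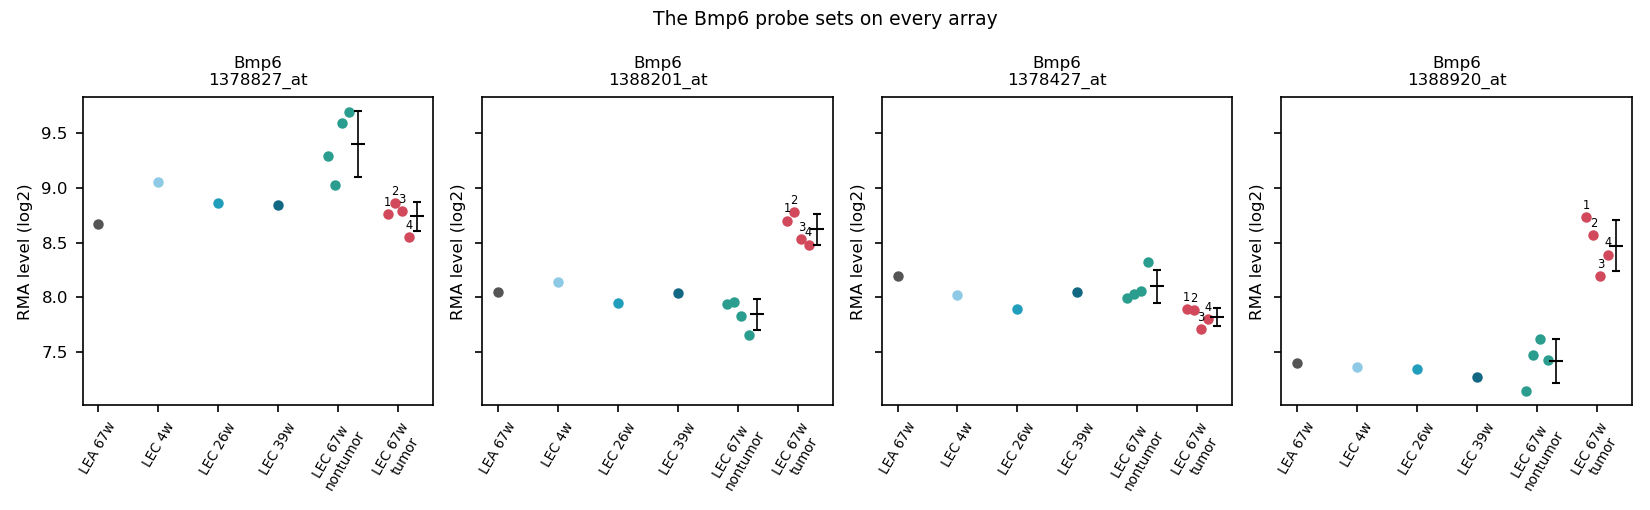
RMA level (log2, y axis) of the 4 Bmp6 probe sets on each of the 12 arrays by group (x axis), with the mean ± SD of the 4 nontumor and 4 tumor arrays. Tumor points lie above nontumor points for 1388201_at and 1388920_at and below them for 1378827_at and 1378427_at.

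Transferrin (Tf), the iron carrier of plasma, is read by 2 probe sets that are both also annotated to Srprb, a subunit of the signal recognition particle receptor. Probe set 1370228_at lay between 14.23 and 14.41 on all 12 arrays, close to the highest value of any probe set on an array (14.32 to 14.59). Tumor and nontumor overlapped there, with a difference of -0.07 ± 0.07 (limma adjusted p = 0.375). Probe set 1391323_at fell in tumor. It read 10.40, 10.20, 10.01 and 9.31 on nontumor arrays and 8.35, 8.71, 9.11 and 7.50 on tumor arrays, a difference of -1.56 ± 0.35 or 2.96-fold (limma adjusted p = 0.00423). The groups did not overlap, and tumor 4 was again the lowest array. Relative to the hepatocyte marker median the difference of this probe set turned to 0.55 (limma adjusted p = 0.611). The median of all probe sets in that setting was 2.08.

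Tfrc, transferrin receptor 1, takes up transferrin iron in most cells. Probe set 1371113_a_at fell in tumor by 0.84 ± 0.24 on the log2 scale (limma adjusted p = 0.0134), from 8.98, 9.46, 9.78 and 9.90 on nontumor arrays to 8.43, 8.71, 9.22 and 8.40 on tumor arrays. Tumor 3 lay above nontumor 1, so the groups overlapped. Probe set 1388750_at read 10.83, 11.16, 11.39 and 11.61 on nontumor arrays and 10.71, 10.85, 11.09 and 10.83 on tumor arrays. Its difference of -0.38 ± 0.16 was not called (limma adjusted p = 0.0666), but was called without nontumor 1 (-0.52, adjusted p = 0.0114) and without tumor 3 (-0.46, adjusted p = 0.048). Relative to the hepatocyte marker median both directions turned, to 1.28 and 1.74 (limma adjusted p = 0.242 and 0.129). The median of all probe sets in that setting was 2.08.

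Slc11a2 (DMT1), which moves ferrous iron across membranes, rose in tumor by a small step. Probe set 1388059_a_at read 8.64, 8.67, 8.71 and 8.63 on nontumor arrays and 9.36, 9.31, 9.28 and 9.16 on tumor arrays. Both groups were tight and apart, and the difference was 0.62 ± 0.07 or 1.54-fold (limma adjusted p = 9.04e-05). Probe set 1367877_at read 9.34 to 9.66 on nontumor and 9.67 to 9.79 on tumor arrays, a difference of 0.24 ± 0.08 (limma adjusted p = 0.0329). Its direction turned to -0.05 (limma adjusted p = 0.722) after a further quantile normalization. The call was lost when any single tumor array, nontumor 1 or nontumor 2 was left out, and with array medians subtracted.

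Slc40a1 (ferroportin), the iron exporter that hepcidin removes from the cell surface, fell in tumor by all 3 of its probe sets. Relative to the hepatocyte marker median the differences turned to 1.34, 1.5 and 1.21 (limma adjusted p = 0.22, 0.175 and 0.268). That setting moves every probe set by the same amount, and the median of all probe sets was 2.08. Probe set 1387130_at read 11.52, 11.80, 11.59 and 12.21 on nontumor arrays and 11.28, 11.23, 10.93 and 10.57 on tumor arrays, a difference of -0.77 ± 0.19 (limma adjusted p = 0.00752). Probe set 1390412_at read 11.26, 11.54, 11.37 and 11.98 on nontumor arrays and 11.15, 10.96, 10.79 and 10.80 on tumor arrays, a difference of -0.61 ± 0.16 (limma adjusted p = 0.00852). Probe set 1376972_at read 9.76, 9.91, 9.73 and 10.08 on nontumor arrays and 9.18, 8.96, 8.85 and 8.83 on tumor arrays, a difference of -0.91 ± 0.11 (limma adjusted p = 1.54e-04). No tumor array reached a nontumor array in any of the 3. Macrophages also carry this exporter. Of 8 measured macrophage markers 3 rose and 3 fell in tumor, and their summed level was 13.94 to 14.64 on nontumor and 13.78 to 14.04 on tumor arrays. Within that list the Kupffer cell genes Cd5l (-4.82 ± 0.57) and Clec4f (-3.85 ± 0.29) fell, and the macrophage gene Adgre1 rose (1.20 ± 0.27). The part of macrophages in the Slc40a1 result was not tested.

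The ferritins, which store iron inside cells, stayed within narrow ranges. Fth1, the heavy chain that oxidises iron, shares its probe set (1367565_a_at) with Fth1-ps5. It read 13.87, 13.98, 14.00 and 14.01 on nontumor arrays and 13.98, 13.99, 14.00 and 13.95 on tumor arrays, a difference of 0.02 ± 0.06 (limma adjusted p = 0.816, 95% interval -0.13 to 0.16). Ftl1, the light chain, shares its probe set (1367559_at) with related loci. It read 13.20, 13.29, 13.40 and 13.35 on nontumor arrays and 13.14, 12.96, 13.19 and 13.03 on tumor arrays, a difference of -0.23 ± 0.08 (limma adjusted p = 0.0327). The Ftl1 call was lost without nontumor 3 (limma adjusted p = 0.0809) or 4 (0.0655), and without tumor 1 (0.0503), 2 (0.0942) or 4 (0.0788). Relative to the hepatocyte marker median its difference turned to 1.89 (limma adjusted p = 0.111), against a median of 2.08 over all probe sets. Both probe sets lie above the 99th percentile of their arrays (12.45 to 12.73). Ferritin protein, which is set largely by translation of these RNAs, was not measured.

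**Figure D4:**
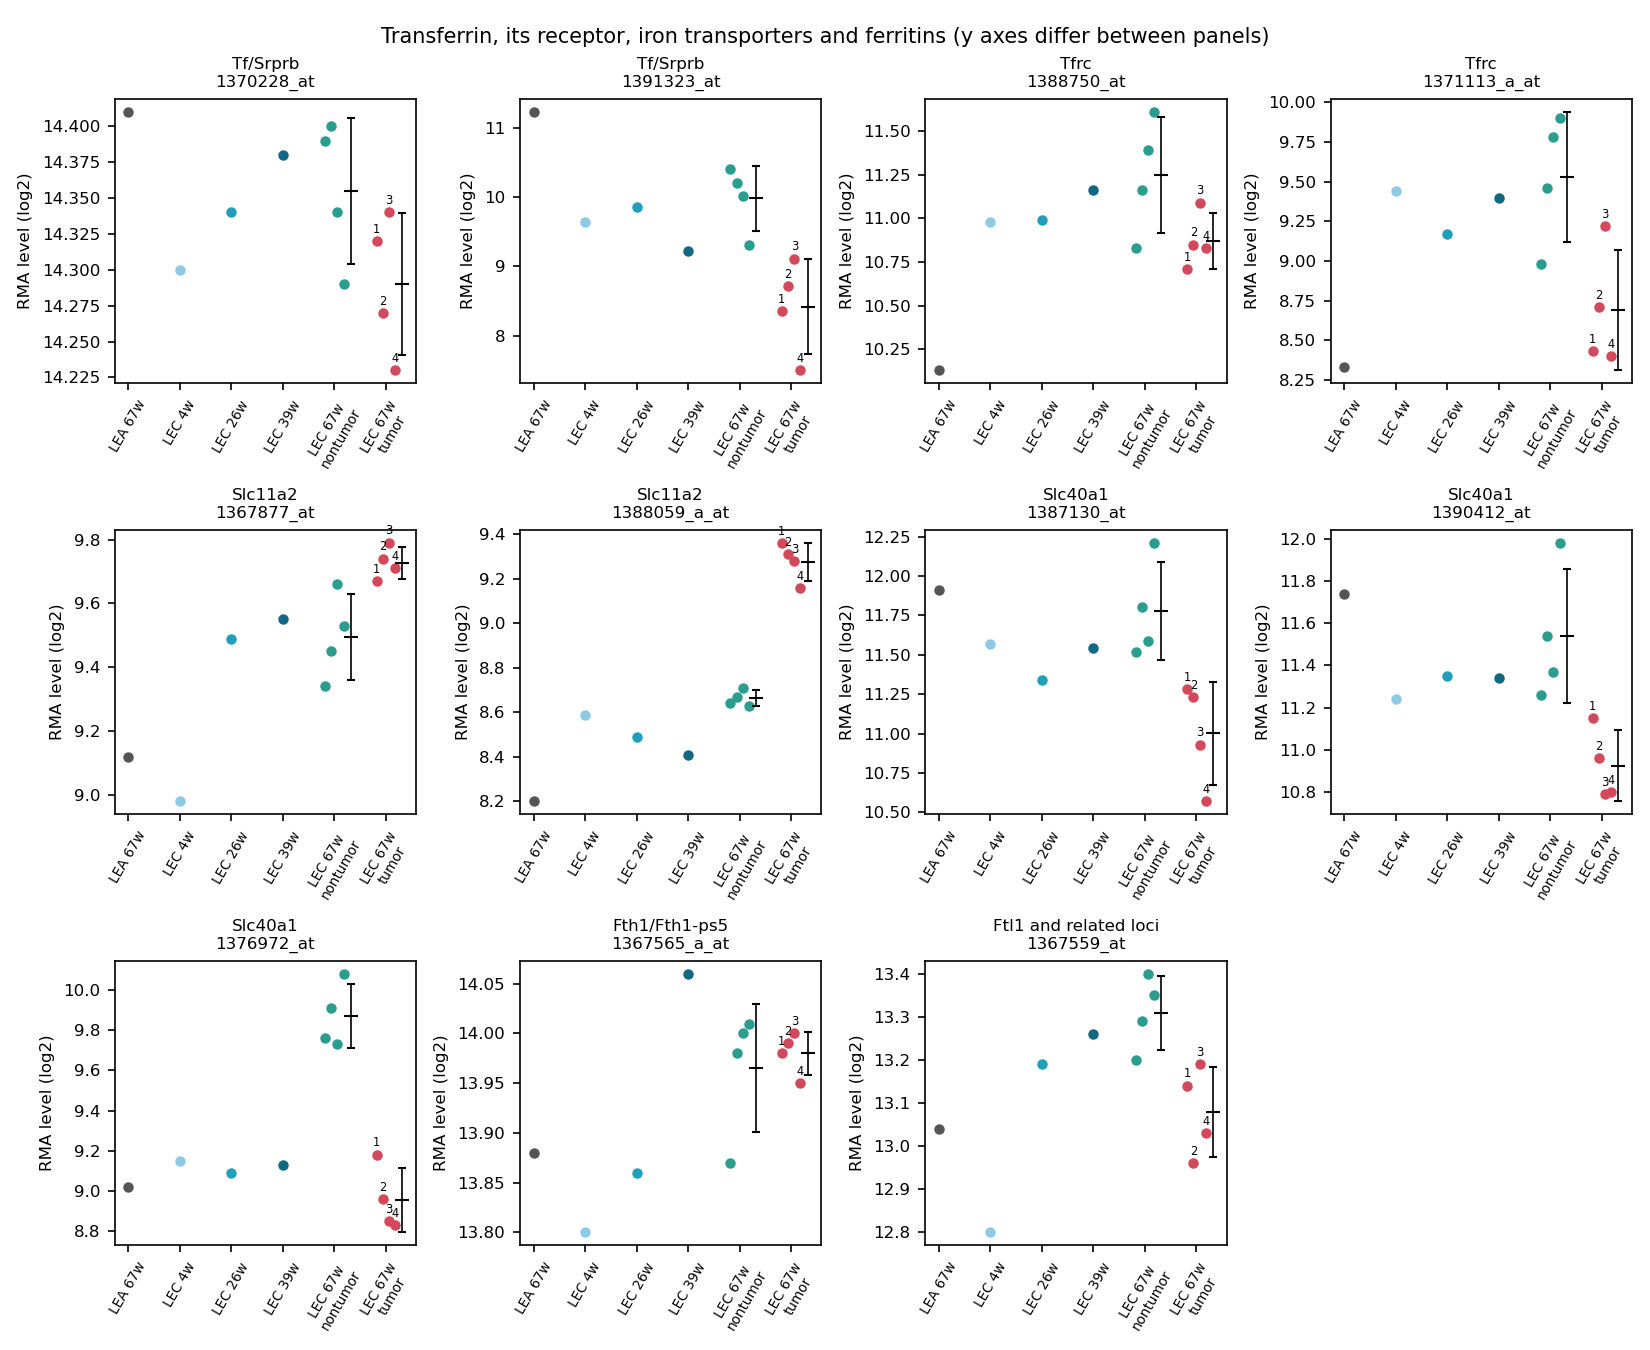
RMA level (log2, y axis, own scale in each panel) of the probe sets for transferrin, Tfrc, Slc11a2, Slc40a1 and the ferritins on each of the 12 arrays by group (x axis), with the mean ± SD of the 4 nontumor and 4 tumor arrays. The 3 Slc40a1 panels have tumor points below nontumor points, the Slc11a2 panels have them above, and the LEA point is lowest in both Tfrc panels.

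Counted over the 18 probe sets, 4 (22.2%) rose and 11 (61.1%) fell in tumor, against 31.7% that rose and 32.2% that fell among all 31042. The median difference was -0.50 for the members and -0.04 for all probe sets. The groups did not overlap for 14 of the 18 (77.8%), against 60.5% of all probe sets. Of all probe sets 16.2% were called with at least a 2-fold difference, and of the members 5 were: Bmp6 1388920_at higher, and Hamp, Hjv, Tfr2 and Tf 1391323_at lower. Because 63.9% of all probe sets were called, a call alone does not set a member apart.

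**Figure D5:**
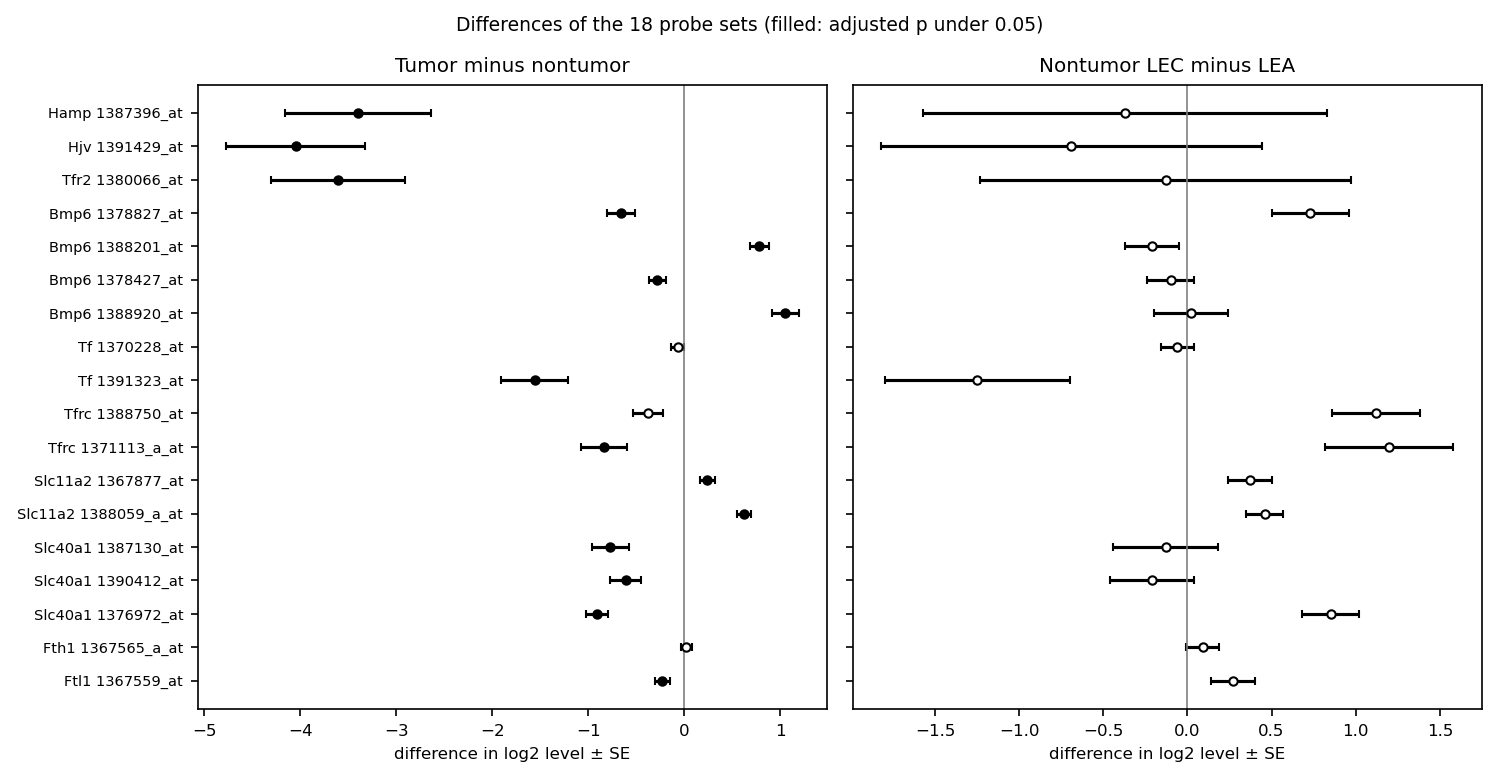
Difference in log2 level ± SE (x axis) of each of the 18 probe sets (y axis), tumor minus nontumor on the left and nontumor LEC minus LEA on the right; filled points have an adjusted p under 0.05. On the left Hamp, Hjv and Tfr2 lie between -3.40 and -4.05; on the right no point is filled.

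The comparison of nontumor LEC liver with LEA liver asks what the LEC strain shows outside tumors at the same age. None of the 18 probe sets was called by limma, against 0.544% of all probe sets, and 6 had an unadjusted p under 0.05. The share of all probe sets with an unadjusted p under 0.05 was not counted, so those 6 do not set the members apart. The spread of the tumor arrays enters every SE of this comparison. For Hjv and Tfr2 the tumor SD was 1.71 and 1.66, against 0.28 and 0.30 in nontumor. A missing call for these genes therefore does not show equal levels. With 1 LEA array, strain and array cannot be told apart. That array also had the highest actin 3′ minus 5′ difference of the 12 (0.75), and 2 of 10 stellate and matrix markers, Col1a1 (2.10 ± 0.35) and Col3a1 (1.36 ± 0.21), were called higher in nontumor LEC liver than in LEA (limma adjusted p = 0.0455 and 0.0369). The GAPDH 3′ minus 5′ difference of the LEA array, 0.67, was below the 0.70 on tumor 4. The part of RNA integrity or of these markers in the differences was not tested. Hamp read 13.49 on the LEA array against the nontumor mean of 13.11, a difference of -0.37 ± 1.20 (limma adjusted p = 0.931, 95% interval -3.10 to 2.36). Its SE is large because the tumor arrays enter the spread, and without them it was 0.21 (adjusted p = 0.682). Hjv read 11.79 on the LEA array, above all nontumor arrays, with a difference of -0.69 ± 1.13 (limma adjusted p = 0.848). Tfr2 read 11.77 there, within the nontumor range, with a difference of -0.13 ± 1.10 (limma adjusted p = 0.976).

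The 6 probe sets with an unadjusted p under 0.05, from Tfrc, Slc11a2, Slc40a1 and Bmp6, were all higher in nontumor LEC liver than on the LEA array. Tfrc had the largest of these differences. On the LEA array 1388750_at was at 10.13, below its levels of 10.71 to 11.61 on all LEC arrays, and the nontumor difference was 1.12 ± 0.26 (limma adjusted p = 0.123, 95% interval 0.54 to 1.71). Without nontumor 1 this difference was 1.26 and was called (limma adjusted p = 0.0406). The other Tfrc probe set, 1371113_a_at, was at 8.33 on the LEA array and 8.40 to 9.90 on the LEC arrays, with a nontumor difference of 1.20 ± 0.38 (limma adjusted p = 0.251). Slc40a1 1376972_at was at 9.02 on the LEA array, with a nontumor difference of 0.85 ± 0.17 (limma adjusted p = 0.0893, 95% interval 0.45 to 1.24), while the other 2 Slc40a1 probe sets gave -0.13 ± 0.31 and -0.21 ± 0.25. Slc11a2 gave 0.46 ± 0.11 and 0.37 ± 0.13 (limma adjusted p = 0.128 and 0.308), and Bmp6 1378827_at gave 0.73 ± 0.23 (limma adjusted p = 0.259). Tf 1391323_at was at 11.23 on the LEA array, above every LEC array, with a nontumor difference of -1.25 ± 0.55 (limma adjusted p = 0.413). Ferritin differences were 0.09 ± 0.10 for Fth1 and 0.27 ± 0.13 for Ftl1, neither called. Groups did not overlap for 12 of the 18 (66.7%), against 48.3% of all probe sets.

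Across the LEC ages, each of 4, 26 and 39 weeks is 1 array, so age, pool and array cannot be told apart. Xist and Eif2s3y split the 26-week and 39-week arrays from the rest. The comparisons of 67-week nontumor liver with these arrays share the nontumor arrays. The tumor arrays enter their SEs as well, so a missing call does not show equal levels. None of the 18 probe sets was called by limma against 4 weeks (0.377% of all probe sets were), 26 weeks (0.213%) or 39 weeks (0.148%), and 3, 2 and 2 had an unadjusted p under 0.05. No share of all probe sets was counted at that unadjusted threshold, so those counts set no member apart. Hamp was at 12.52, 13.49 and 13.72 at 4, 26 and 39 weeks, then 13.11 in nontumor liver at 67 weeks. The 4-week level was the lowest outside tumor, and the nontumor mean was 0.60 ± 1.20 above it (limma adjusted p = 0.89). Hjv was at 10.92, 11.25 and 10.84, and Tfr2 at 11.20, 11.29 and 11.27. From the highest to the lowest group mean, Hamp ran LEC 39 weeks, LEC 26 weeks, LEA, nontumor, LEC 4 weeks and tumor. The 39-week, 26-week and LEA levels lay above the nontumor range of 12.84 to 13.38 and the 4-week level below it, none was called against nontumor by limma, and single arrays were not tested against one another. Tumor was last in the order for Hamp, Hjv, Tfr2, both Tf probe sets, all 3 Slc40a1 probe sets and Bmp6 1378427_at.

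Slc40a1 1376972_at stayed between 9.09 and 9.15 on the 3 younger LEC arrays and was at 9.73 to 10.08 in nontumor liver at 67 weeks, differences of 0.72, 0.77 and 0.73 that were not called (limma adjusted p = 0.137, 0.18 and 0.229). Ftl1 was at 12.80, 13.19 and 13.26 at 4, 26 and 39 weeks and 13.31 in nontumor liver. Its 4-week array was the lowest of all 12, with a nontumor difference of 0.50 ± 0.13 (limma adjusted p = 0.144). Fth1 was also lowest at 4 weeks, at 13.80, with 13.86 at 26 and 14.06 at 39 weeks. Slc11a2 1367877_at was at 8.98, 9.49 and 9.55, with a nontumor difference of 0.52 ± 0.13 from 4 weeks (limma adjusted p = 0.148). Tfrc 1388750_at was at 10.98, 10.99 and 11.16, within the nontumor range. Bmp6 1378827_at was at 9.05, 8.86 and 8.84 and in nontumor liver at 9.40, 0.54 ± 0.23 above 26 weeks (limma adjusted p = 0.446).

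The wider iron pathway was described by lists of genes, each gene by its probe set with the highest mean. Over all 14217 genes, 38.8% rose and 29.2% fell in tumor, with a median difference of 0.07. In BMP and SMAD control of hepcidin, 28 of 30 genes were measured, 15 rose, 7 fell and 6 were not called, with a median of 0.33. Hfe, the hemochromatosis gene that acts with Tfr2, fell by 2.10 ± 0.27 (limma adjusted p = 2.11e-04). Fgl1, a hepatocyte protein that blocks BMP action on hepcidin, fell by 3.24 ± 0.92 (limma adjusted p = 0.0133). The BMP receptor gene Acvr1 rose by 1.32 ± 0.13 (limma adjusted p = 5.32e-05). Bmper, an extracellular BMP regulator, rose by 2.03 ± 0.42 (limma adjusted p = 0.00281) from a nontumor level of 4.86 that is within the range of absent controls. In IL-6 and STAT3 input, 12 of 14 were measured, 7 rose, 3 fell and 2 were not called, with a median of 0.32. Inhbb, which encodes the activin B subunit, had the largest difference, 3.93 ± 0.10 or 15.2-fold higher (limma adjusted p = 2.23e-07). Its nontumor level of 6.38 is near the highest absent controls of nontumor arrays (5.88 to 6.01), so the rise has no exact size. Genes stand in this list by name only, and activity of IL-6 or STAT3 was not measured. Creb3l3, a liver transcription factor that binds the Hamp promoter, fell by 2.61 ± 0.22 (limma adjusted p = 2.14e-05). The kinase Jak2 rose by 1.05 ± 0.11, and the leptin receptor Lepr fell by 0.91 ± 0.06. When array medians were subtracted, 4 of the list's genes rose in place of 7, and without dim probe sets 1 fell in place of 3.

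In iron uptake, reduction and oxidation, 15 of 16 were measured, 6 rose, 5 fell and 4 were not called, with a median of -0.19. Without dim probe sets, which leaves out Scara5, Cubn and Steap2, 2 rose in place of 6. The 4 called genes with the largest differences were higher in tumor. The ferritin receptor Scara5 rose by 2.20 ± 0.17 and the endocytic receptor Cubn by 2.15 ± 0.17, from nontumor levels of 5.52 and 6.06 that are at or near the highest absent controls (5.88 to 6.01), so neither rise has an exact size. Lcn2, which binds iron-carrying siderophores, rose by 1.55 ± 0.28 and the metalloreductase Steap2 by 1.51 ± 0.17. In iron sensing and ferritin turnover, 7 of 8 were measured, 4 rose, 2 fell and 1 was not called, with a median of 0.25. Ireb2, an iron regulatory protein that binds ferritin and Tfrc RNA, fell by 1.23 ± 0.22 (limma adjusted p = 0.00119). Its relative Aco1 fell by 0.46 ± 0.17 (limma adjusted p = 0.0392). That call was lost when any tumor array, nontumor 1 or nontumor 2 was left out (limma adjusted p = 0.0535 to 0.0996). It was also lost when the array's title number was fitted as a block (limma adjusted p = 0.0644). The iron chaperone Pcbp2 rose by 0.79 ± 0.08, and Herc2, a ubiquitin ligase, by 0.68 ± 0.09. After a further quantile normalization, or with array medians subtracted, 2 of this list rose in place of 4.

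Among the heme genes most calls were falls. In heme breakdown and transport all 13 were measured, 1 rose, 10 fell and 2 were not called, with a median of -1.26. Blvrb, a biliverdin reductase, fell by 1.91 ± 0.17 (limma adjusted p = 2.47e-05) and Hmox1, the inducible heme oxygenase, fell by 1.78 ± 0.27 (limma adjusted p = 5.74e-04). The exporter Abcg2 fell by 1.74 ± 0.13 and the transporter Flvcr2 fell by 1.64 ± 0.22. In heme synthesis 11 of 12 were measured, 2 rose, 8 fell and 1 was not called, with a median of -0.73. Alas1, the rate-limiting enzyme in liver, fell by 1.95 ± 0.20 (limma adjusted p = 6.13e-05), the last enzyme Fech fell by 1.25 ± 0.10 and Alad fell by 0.93 ± 0.18, while the mitochondrial membrane protein Tspo rose by 2.45 ± 0.25 (limma adjusted p = 5.49e-05). The count of falls in this list was 5 without nontumor 1, nontumor 3 or tumor 2, and 5 with the title number fitted as a block. After a further quantile normalization 1 rose in place of 2. In mitochondrial iron and iron-sulfur clusters 12 of 15 were measured, 3 rose (1 after a further quantile normalization), 6 fell and 3 were not called, with a median of -0.37. Fdx1, a ferredoxin, fell by 1.34 ± 0.21, the cysteine desulfurase Nfs1 fell by 1.21 ± 0.10 and Glrx5 fell by 0.93 ± 0.09, and the iron importer Slc25a28 rose by 0.91 ± 0.10. The hepatocyte markers fell beside these lists, with a list median of -2.13, and their part in the lists was not tested.

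Few of the listed genes differed between nontumor liver and the single arrays. Against LEA only Slc46a1, a heme and folate carrier, was called, at -0.87 ± 0.13 (limma adjusted p = 0.0299), and the call was lost without nontumor 2 (adjusted p = 0.0569), nontumor 3 (0.0804) or tumor 2 (0.0683). Slc46a1 was also called against 26 weeks, at -0.91 (limma adjusted p = 0.0446), a call lost when any tumor or nontumor array was left out (adjusted p = 0.0591 to 0.112). Against 4 weeks Lcn2 was 4.44 ± 0.44 higher, or 21.6-fold, at 12.27 in nontumor liver and 7.83 on the 4-week array (limma adjusted p = 0.00853). Lepr was at 6.85 in nontumor liver and 7.86 at 4 weeks, a fall (limma adjusted p = 0.00917). None of the Slc46a1, Lcn2 and Lepr calls held in a fit without the tumor arrays. The Slc46a1 call against 26 weeks was also lost after a further quantile normalization, without dim probe sets and with an alternative prior. No gene of the iron lists was called against 39 weeks.

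The genes most like Hamp across arrays were found by Pearson correlation with its probe set, given as a description. Hamp was at 7.27 to 11.40 on tumor arrays and at 12.52 to 13.72 on the others. A correlation over 12 arrays holds both that gap and the spread among tumor arrays. Over all 12 arrays the closest 8 of 14217 genes were Uroc1, Rcan1, Asgr1, Serpina10, Upb1, Sult1c3, Cyp4a1 and Cdo1, with r from 0.979 to 0.982. Tfr2 was at place 37 (r = 0.970) and Hjv at place 84 (r = 0.962). Over the 8 arrays without tumor the closest were Wbp1, Arf3, Nup107, Mettl16, Exoc6, Dop1a, Pf4 and Ptbp3, with r from 0.957 to 0.975 over level ranges of 0.30 to 1.66. No gene was in both lists of 8. Without tumor, Hjv was at place 4050 (r = 0.416) and Tfr2 at place 6576 (r = 0.238), so the likeness of the 3 genes over 12 arrays rests on the tumor arrays.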

How the data were processed

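Total RNA was labelled from 3 µg per array by the standard protocol of the array maker, per the labels' protocols. The values are log2 levels of the deposited table, made by the authors; the submitters' processing notes name RMA and R version 2.6.1; scanner files and dates were not used here. The platform annotation gave 20826 of 31099 probe sets 1 gene, 436 several and 9780 none, and 57 controls were left out. limma 3.58.1 (R 4.3.3) fitted a group-means model over the 12 arrays (6 residual and 2.84 prior degrees of freedom), two-sided, with Benjamini-Hochberg adjustment over 31042 probe sets. A run on simulated data gave each probe set the same spread in all groups. It cannot vouch for probe sets such as Hamp, with an SD of 0.22 in nontumor and 1.83 in tumor. Array number limits the precision. The members and lists were chosen with earlier results of these data known. All member probe sets are named, up to 4 called genes a list and comparison with the largest difference, and the 8 genes most correlated with Hamp; other named genes (the marker genes, Xist and Eif2s3y) were chosen after their values were seen. Macrophage and bile duct lists, and those for endothelium, stellate and red blood cells and sex, were fixed as markers: 10 of 10 stellate markers rose, 2 of 7 sinusoidal endothelial markers rose and 4 fell, and 4 of 7 red blood cell markers fell in tumor. Of the sex lists, 1 of 10 male liver markers rose and 7 fell, and 1 of 9 female liver markers rose and 7 fell. Alternatives covered scaling, dim probe sets, priors, weights, single arrays left out and a replicate block.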

Additional observations from a re-analysis of the deposited data

How the results depend on the processing

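For tumor against nontumor, Hamp, Hjv, Tfr2 and Slc40a1 kept their direction and call under the alternative settings other than 2. Slc40a1 misses the 2-fold threshold, at which 1 member probe set rose and 4 fell, against 4 and 11. The hepatocyte marker median was subtracted in a setting chosen after seeing the data. There 3 member probe sets rose and 0 fell by limma, against 6569 and 2 of all 31042. At an unadjusted p under 0.05 it was 5 and 0, with no share of all probe sets counted. Hamp, Hjv and Tfr2 lost the call (-1.29, -1.93 and -1.49). Directions turned for Slc40a1 (1.34, 1.5 and 1.21), Tfrc (1.74 and 1.28), Tf (2.05 and 0.55), Ftl1 (1.89) and Bmp6 1378827_at (1.46) and 1378427_at (1.84), against a median of 2.08 over all probe sets. Over the other settings 3 to 4 rose and 9 to 13 fell. Whether the title numbers pair the tumor and nontumor arrays was not settled. Same-numbered deviations correlated at 0.0535, 0.142, -0.0816 and 0.142 for tumor 1 to 4. For tumor 1, 2 and 4 this was the highest value with any nontumor array, and for tumor 3 the lowest. Arrays with unlike numbers correlated at -0.144 to 0.108. With the number as a replicate block, 9698 of all probe sets rose and 9259 fell, Tfrc 1388750_at was called (adjusted p = 0.0364) and Ftl1 was not (adjusted p = 0.0563). Subtracting array medians moved the median of all probe sets to -0.14 from -0.04, and 8524 rose and 13052 fell. Of the called probe sets 39.5% rose, against 49.6% of those called in the main fit. Without dim probe sets 6879 rose and 3820 fell among 15521 tested. The mean over all 4 Bmp6 probe sets rose (0.22), while 1378827_at, the brightest of them, fell. Directions also turned for Tf 1370228_at (0.08) and Slc11a2 1367877_at (-0.05) after a further quantile normalization. Fth1 turned with array medians subtracted (-0.08) and when single arrays were left out (-0.01 to 0.03). The cause was not tested. For nontumor against LEA, 0 member probe sets were higher, or 0 to 1 when single arrays were left out. The direction of Bmp6 1388920_at turned with array weights (-0.06) and with single arrays left out (-0.05 to 0.11). The mean over all 3 Slc40a1 probe sets was higher (0.17), while 1387130_at, the brightest of them, was lower. Calls over all probe sets against LEA ran from 12 higher and 26 lower without the tumor arrays to 132 and 186 with array weights, against 59 and 110. Levels near the absent controls or the top of the scale limit Hjv, Tf and the ferritins.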
